A study of Mus musculus with 8 samples.

Results

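The genes of the unfolded protein response and the integrated stress response were examined in the livers of 8 mice, 4 controls and 4 labelled as a liver-specific knockout of Rictor. They were taken from a list of 33 named genes, and the probe sets whose annotation carries one of these symbols were found. All 33 genes were measured, by 35 probe sets that each name 1 gene, out of 20738 genes represented on the array; where a gene had 2 probe sets, the brighter was used. Rictor is the subunit that defines mTORC2, a kinase complex that phosphorylates Akt when insulin acts on the hepatocyte. All animals were adult males that had fasted for 16 h and then had free access to food for 3 h, so both groups were in the same refed state. The control genotype is given as wild type and the other as Rictor floxed, with a knockout in liver stated in the sample descriptions. The labels name neither the Cre line or promoter nor the strain. Each group is 4 livers, 1 array per liver (Affymetrix Mouse Gene 1.0 ST, probes along the whole transcript). Nothing further is said of litters, so the p-values measure the spread between these samples. All values are on the log2 scale after RMA normalization, and a difference is the knockout-labelled mean minus the control mean, n = 4 in each group unless stated.

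The endoplasmic reticulum (ER) folds secreted and membrane proteins, and the hepatocyte, which makes most plasma proteins, depends on it heavily. When unfolded protein accumulates, 3 membrane sensors respond. IRE1 (gene Ern1) splices the Xbp1 mRNA, ATF6 is cut into a transcription factor, and PERK (gene Eif2ak3) phosphorylates the initiation factor eIF2alpha. XBP1 and ATF6 turn on chaperones and the machinery of ER-associated degradation (ERAD), which returns misfolded proteins to the cytosol. Phosphorylated eIF2alpha, which other kinases can also produce in the integrated stress response, favours translation of ATF4, and ATF4 turns on genes of amino acid supply and stress signalling. Feeding after a fast is known to raise part of this programme in liver, Sdf2l1 among it.

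The Rictor probe set read 9.47, 9.28, 9.23 and 9.64 in controls and 9.15, 9.51, 9.68 and 9.47 on the knockout-labelled arrays. These ranges overlap, and probes outside a deleted exon can keep their signal, so the labels cannot be checked on it; the groups are named by their labels throughout. Of all 20738 genes 0% passed the threshold of adjusted p under 0.05 with the 8 arrays at equal weights (limma), the smallest adjusted p being 0.0993. At an unadjusted p under 0.05, 3.94% were higher and 6.47% lower. Knockout-labelled array 1 had a mean correlation of 0.988 with its own group and 0.991 with the controls; for control 1 both were 0.991. Igfbp1, which insulin represses, read 10.04 on control 1 against 7.29 to 7.40 on controls 2 to 4, and 7.76 on knockout-labelled array 1 against 9.65 to 10.10 on arrays 2 to 4. An exchange of the labels of these 2 arrays would change every group difference; it was not tested, and the labels were kept. For the members whose difference moved most, values without both arrays are also given. The 8 hepatocyte markers averaged 13.80 to 13.88 in controls and 13.84 to 13.86 in the other group, with 6 of 8 higher in mean. The mean of the Kupffer cell markers, 7 genes, ranged from 8.72 to 9.38 in controls and from 8.86 to 9.86 in the knockout-labelled group. Of these 7 genes 6 were higher in mean (median 0.16). Markers of lymphocytes and of plasma cells, of which the plasma cells have a high secretory programme, were taken as 1 list. They averaged 6.32 to 6.57 and 6.24 to 6.41, with 7 of 7 lower in mean and 0 of 7 past the threshold. Over all genes 56.9% were lower in mean. Markers of exocrine pancreas averaged 6.41 to 6.58 and 6.33 to 6.56 (6 of 7 measured), with 5 of 6 lower in mean. The 4 measured of 5 cholangiocyte markers averaged 7.46 on control 1 and 7.62 to 7.90 on controls 2 to 4, against 7.82 on knockout-labelled array 1 and 7.36 to 7.40 on arrays 2 to 4, the same arrangement of arrays as in Syvn1 and Edem1 below. Of these 4 genes 0 passed with all arrays. With array weights 1 was called lower, where 2.05% of all genes were called lower. Without both arrays numbered 1 there were 2 called lower, where 4.86% of all genes were (median -0.37, 3 of 4 lower in mean). With all arrays the keratins Krt19 and Krt7 differed by 0.02 and 0.11, and the other 2 genes were lower in mean, down to -0.46. The part of these cell types in the results was not tested, and in whole liver fewer cells of a type and less RNA per cell cannot be told apart.

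The factors of each branch are known to bind particular promoter elements, so these were searched for in RefSeq promoter windows (GRCm38.p6, 250 bases before to 50 after the gene start), which matched 29 of the 33 members by symbol (not Hyou1, Manf, Derl1 and Atf6). Both strands were searched for the ER stress response element ERSE (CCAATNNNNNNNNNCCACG), for ERSE-II (ATTGGNCCACG), for the XBP1-type element UPRE (TGACGTGG) and for the C/EBP-ATF composite element CARE (TTNCATCA). ERSE and ERSE-II share the end CCACG, and no member's window held both. An ERSE was found in 9 of the 19 ER chaperone, folding and ERAD genes with a window and in 0 of the 6 ATF4 targets; 0.119% of all 32851 windows hold one. An ERSE-II was found in 2 of the 19, Dnajb11 and Herpud1, against 0.0365% of all windows. A CARE was found in 4 of the 6 ATF4 targets (Atf3, Trib3, Asns and Chac1) and in 1 of the 19, Herpud1, against 3.97% of all windows. The UPRE letters were in no member's window and in 0.676% of all windows. These are letter matches, and absence says only that the letters are not in this window.

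The windows below end at the last base before the gene start, read 5′ to 3′ on the gene's strand, with the matched element in capitals. The first 5 are ER genes: Creld2, Syvn1 and Derl3, the ones that varied most among those with an element, Hspa5, the classical target, and Herpud1, which holds elements of both kinds.
Creld2 (chr15:88819500-88819645, plus strand): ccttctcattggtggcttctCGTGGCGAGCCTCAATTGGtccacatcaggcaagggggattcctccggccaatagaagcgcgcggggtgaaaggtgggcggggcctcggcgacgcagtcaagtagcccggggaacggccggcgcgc
Syvn1 (chr19:6046456-6046575, plus strand): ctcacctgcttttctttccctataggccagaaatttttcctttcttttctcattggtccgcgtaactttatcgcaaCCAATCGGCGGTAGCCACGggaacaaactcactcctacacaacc
Derl3 (chr10:75893222-75893397, plus strand): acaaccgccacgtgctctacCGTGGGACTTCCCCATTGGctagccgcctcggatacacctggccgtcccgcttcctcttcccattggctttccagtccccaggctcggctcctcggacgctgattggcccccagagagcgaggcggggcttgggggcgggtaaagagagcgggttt
Hspa5 (chr2:34771970-34772089, plus strand): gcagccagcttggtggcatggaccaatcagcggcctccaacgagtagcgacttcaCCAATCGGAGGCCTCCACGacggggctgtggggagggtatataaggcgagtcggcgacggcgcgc
Herpud1 (chr8:94386297-94386428, plus strand): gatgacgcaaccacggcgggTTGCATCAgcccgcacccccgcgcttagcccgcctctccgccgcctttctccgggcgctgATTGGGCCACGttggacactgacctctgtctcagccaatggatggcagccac
The other windows are ATF4 targets, Asns being the most variable member of all.
Asns (chr6:7693210-7693329, minus strand): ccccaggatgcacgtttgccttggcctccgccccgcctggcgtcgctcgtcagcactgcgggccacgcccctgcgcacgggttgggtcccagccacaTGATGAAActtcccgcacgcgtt
Chac1 (chr2:119351029-119351241, plus strand): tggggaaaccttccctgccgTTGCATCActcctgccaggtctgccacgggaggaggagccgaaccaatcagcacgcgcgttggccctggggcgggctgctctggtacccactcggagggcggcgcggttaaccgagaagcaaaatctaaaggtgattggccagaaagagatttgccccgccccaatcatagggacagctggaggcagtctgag
Atf3 (chr1:191183334-191183463, minus strand): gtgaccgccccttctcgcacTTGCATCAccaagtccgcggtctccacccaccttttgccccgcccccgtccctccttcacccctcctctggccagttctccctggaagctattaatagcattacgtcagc
Counting the last base before the gene start as -1, the ERSE begins at -65 in Hspa5 and at -44 in Syvn1, both on the gene's strand. Creld2 and Derl3 carry it on the opposite strand, from -126 and -156. Hsp90b1 holds 2, from -212 and -107, on opposite strands.

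**Figure D1:**
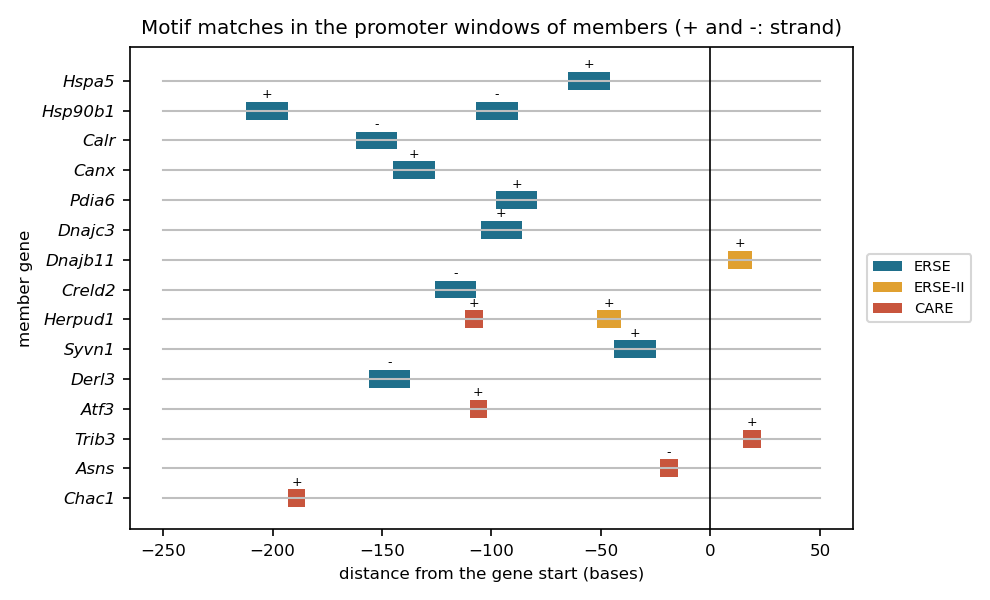
Positions of ERSE, ERSE-II and CARE matches in the promoter windows of the 15 members that hold one, as distance from the gene start in bases; grey lines are the windows, coloured boxes the matches, and + and - the strand relative to the gene. ERSE boxes lie in chaperone and ERAD genes and CARE boxes in ATF4 targets, with Herpud1 holding both a CARE and an ERSE-II.

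Across the 33 members 12 had a higher and 21 a lower mean on the knockout-labelled arrays, with a median of -0.09, beside -0.02 over all genes, of which 56.9% were lower. None passed the threshold (limma adjusted p from 0.363 to 0.995), and 2 had an unadjusted p under 0.05, Creld2 and Xbp1, both lower, against the background of 6.47% of genes. In no member did the groups separate fully. Of all genes 1.87% were separated with the knockout-labelled group higher and 2.58% with it lower, shares that would give few among 33 genes. The median range of the members over the 8 arrays was 0.51, beside 0.41 over all genes. Asns, Creld2, Derl3, Syvn1 and Sdf2l1 had ranges of 1.99, 1.76, 1.73, 1.25 and 1.24, at or above the 98.7th percentile of all genes.

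**Figure D2:**
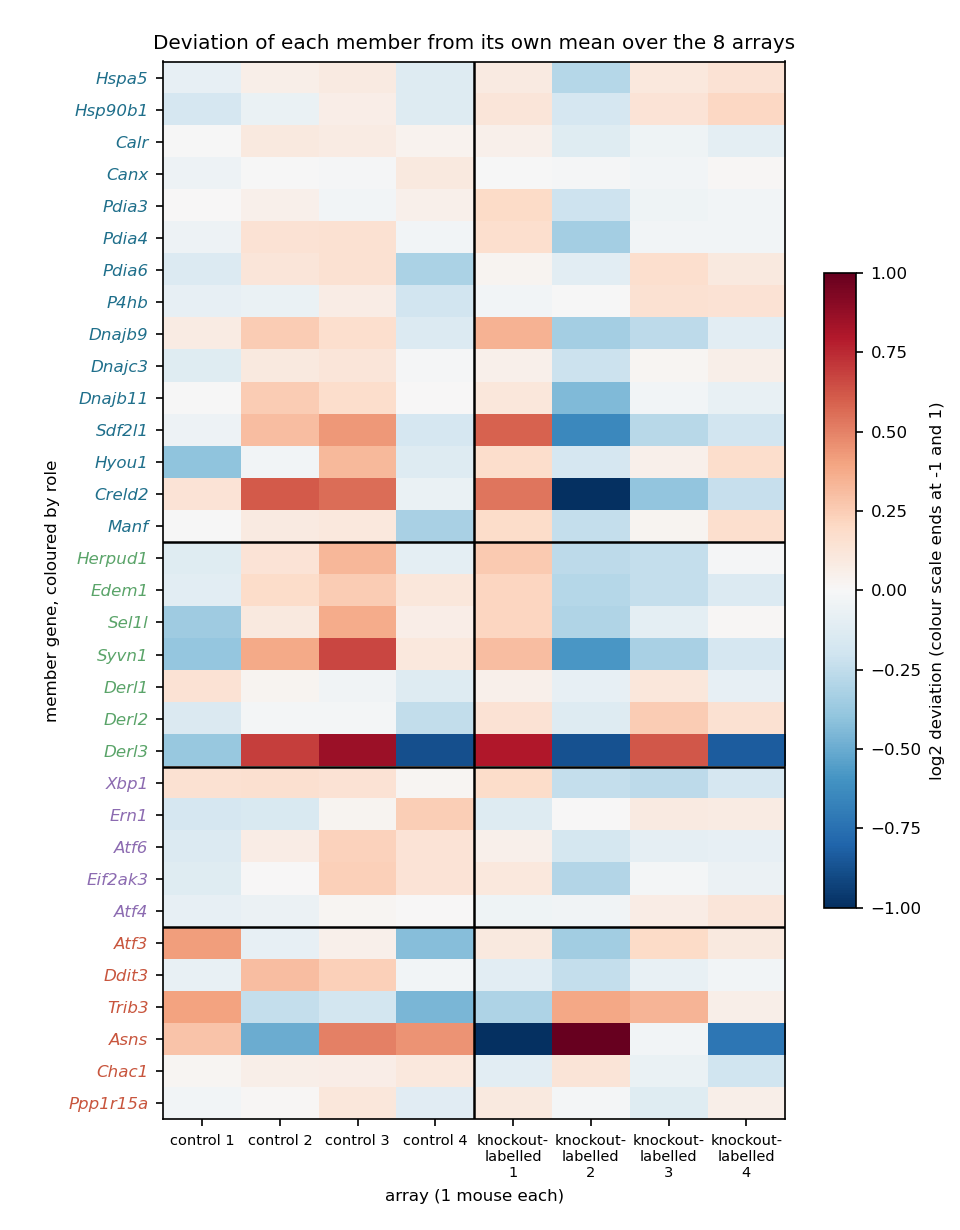
Heat map of the 33 members (rows, grouped and coloured by role) on the 8 arrays (columns, 1 mouse each), as the log2 deviation from each gene's own mean over the 8 arrays. Knockout-labelled array 2 is the lowest for Creld2, Sdf2l1 and Syvn1, knockout-labelled array 1 resembles controls 2 and 3 in these genes, and Asns runs from 9.39 on knockout-labelled array 1 to 11.38 on array 2.

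With limma array weights (lowest for knockout-labelled array 1, at 0.471), 1 member passed as lower (Xbp1) and 0 as higher, against 2.05% of all genes lower and 1.36% higher. Without knockout-labelled array 1 there were 2, Creld2 and Xbp1, both lower, where 3.08% of all genes were called lower and 1.10% higher. Without both arrays numbered 1, 5 members were called lower (Edem1, Syvn1, Xbp1, Creld2 and Sdf2l1) and 1 higher (Trib3), where 4.86% of all genes were called lower and 2.39% higher. The arrays were left out because they were known to stand apart in these data, so these calls describe the remaining 6 livers and are no separate test. Without control 1 alone 0 members passed.

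Among the 15 chaperones and folding factors 9 had a lower and 6 a higher mean, with a median of -0.04. In the luminal chaperones Hspa5 and Hsp90b1 the difference was smaller than the spread between livers or close to it. Hspa5 encodes BiP, the Hsp70 of the ER and the best known target of the response. It read 13.52, 13.67, 13.70 and 13.48 in controls and 13.70, 13.32, 13.71 and 13.75 on the knockout-labelled arrays. The difference was 0.03 (SE 0.09; 95% interval -0.17 to 0.23; limma adjusted p = 0.946), and its sign turned when control 4, knockout-labelled array 3 or knockout-labelled array 4 was left out. Only knockout-labelled array 2 lay clearly below the rest. Hsp90b1 encodes GRP94, the Hsp90 of the ER. It read 13.09, 13.19, 13.33 and 13.13 in controls and 13.38, 13.09, 13.40 and 13.47 on the other arrays, differing by 0.15 (SE 0.09; limma adjusted p = 0.557). Knockout-labelled arrays 1, 3 and 4 thus lay above all controls and array 2 level with the lowest.

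The lectin chaperones calreticulin (Calr) and calnexin (Canx), which hold newly made glycoproteins, differed by -0.10 (SE 0.06) and -0.02 (SE 0.06). For Calr the SD was 0.04 in controls and 0.08 in the other group. Over the 6 livers not numbered 1 Calr differed by -0.16 (SE 0.06; 95% interval -0.28 to -0.03; limma adjusted p = 0.124). Canx had the narrowest range of all members, 0.15 over the 8 arrays. The protein disulfide isomerases, which form and shuffle disulfide bonds, had differences of both signs: P4hb differed by 0.13 (SE 0.07), Pdia6 by 0.09 (SE 0.11), Pdia3 by -0.04 (SE 0.08) and Pdia4 by -0.11 (SE 0.10). The second, dimmer probe set of Pdia4 gave -0.29 (SE 0.15). The brighter one, over the 6 livers not numbered 1, differed by -0.22 (SE 0.09; 95% interval -0.42 to -0.03; limma adjusted p = 0.163). For P4hb the lowest value was 12.77 on control 4 and the highest 13.12, on knockout-labelled arrays 3 and 4.

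The J-protein Dnajb11 (ERdj3) read 10.72, 10.98, 10.90 and 10.73 in controls and 10.84, 10.28, 10.70 and 10.65 on the knockout-labelled arrays, differing by -0.21 (SE 0.12; limma adjusted p = 0.540). The J-protein Dnajb9 (ERdj4), an IRE1-XBP1 target, read 12.37, 12.54, 12.46 and 12.15 against 12.64, 11.95, 12.03 and 12.18, a difference of -0.18 (SE 0.14; limma adjusted p = 0.679). Knockout-labelled array 1 lay among the controls for Dnajb11 and above all of them for Dnajb9, and array 2 was the lowest of all in both. Over the 6 livers not numbered 1 Dnajb11 differed by -0.32 (SE 0.12; limma adjusted p = 0.127) and Dnajb9 by -0.33 (SE 0.10; limma adjusted p = 0.0711). Dnajc3, which encodes the co-chaperone p58IPK, differed by -0.04 (SE 0.09), and its 2 probe sets held identical values. Hyou1, a large ER Hsp70 relative that acts as nucleotide exchange factor for BiP, differed by 0.12 (SE 0.14), with control 1 the lowest at 11.64 and control 3 the highest at 12.36. Manf, a secreted ER-stress-induced factor, differed by 0.07 (SE 0.12).

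Sdf2l1 and Creld2 had wide spreads. Sdf2l1, which works with the J-protein Dnajb11, read 12.37, 12.73, 12.85 and 12.25 in controls and 13.01, 11.77, 12.14 and 12.23 on the knockout-labelled arrays. The highest and the lowest of the 8 livers were thus both knockout-labelled, arrays 1 and 2, and arrays 2 to 4 all lay below the controls, array 4 by a narrow margin. The difference was -0.26 (SE 0.22; limma adjusted p = 0.712). In the 6 livers not numbered 1 it was -0.56 (SE 0.15; limma adjusted p = 0.0372). Creld2, an ER-resident protein with disulfide isomerase activity and a strong target of the response, read 12.45, 12.93, 12.87 and 12.24 in controls and 12.85, 11.17, 11.92 and 12.08 on the knockout-labelled arrays. Again arrays 2 to 4 lay below every control and array 1 beside controls 2 and 3. Its difference of -0.62 (SE 0.28), or 0.651 times the control level, was the largest of the 33 members (95% interval -1.22 to -0.02; limma adjusted p = 0.435; exact two-sided permutation p = 0.143, the smallest possible being 0.0286). Dropping knockout-labelled array 1 gave -0.90 (limma adjusted p = 0.0381), dropping control 1 as well gave -0.96 (limma adjusted p = 0.0170), and dropping knockout-labelled array 2 gave -0.34.

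**Figure D3:**
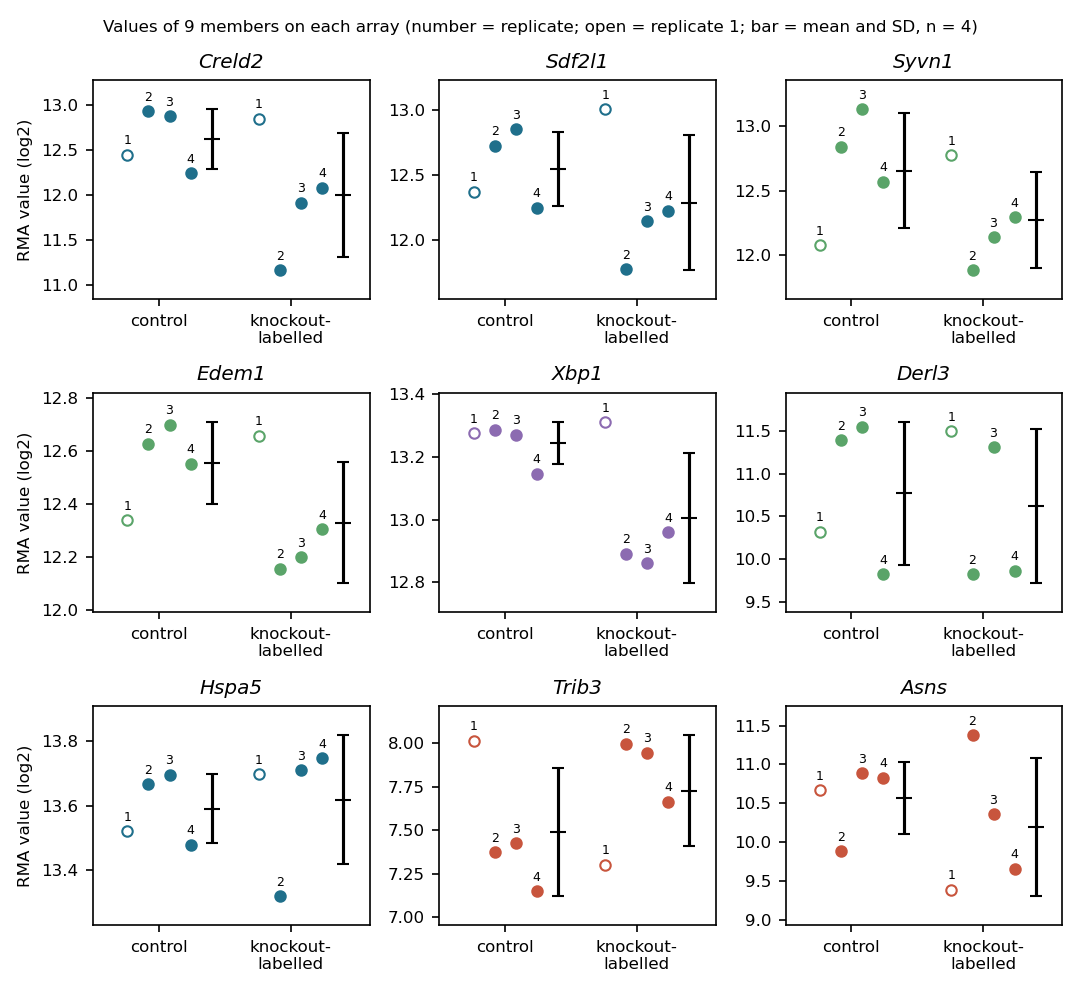
RMA values (log2, vertical axis) of 9 members on each array, controls on the left and knockout-labelled arrays on the right of each panel; numbers are the replicate numbers, open circles replicate 1, and black bars the mean and SD (n = 4). In Creld2, Sdf2l1, Syvn1, Edem1 and Xbp1 knockout-labelled arrays 2 to 4 sit low while array 1 sits with or above controls 2 to 4, and in Trib3 the order is turned.

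Of the 7 ERAD genes 6 had a lower mean, with a median of -0.12. Syvn1 encodes HRD1, the ubiquitin ligase at the centre of ERAD. It read 12.08, 12.84, 13.13 and 12.57 in controls and 12.77, 11.89, 12.14 and 12.29 on the knockout-labelled arrays, differing by -0.38 (SE 0.21; limma adjusted p = 0.544). Here control 1 and knockout-labelled arrays 2 to 4 made up the lower 4 livers, up to 12.29, and the others the upper 4, from 12.57. The lower 4 here were the upper 4 for Igfbp1. Edem1, a mannosidase-like protein that hands misfolded glycoproteins to ERAD, split the livers in the same way. It read 12.34, 12.63, 12.70 and 12.55 in controls and 12.66, 12.15, 12.20 and 12.30 in the other group, a difference of -0.22 (SE 0.11; limma adjusted p = 0.496). In the 6 livers not numbered 1 the difference was -0.74 (SE 0.13) for Syvn1 and -0.41 (SE 0.07) for Edem1, each with a limma adjusted p of 0.00514. The split was not particular to ERAD. Sel1l, Calr, Dnajb11, Atf6 and Eif2ak3 had the same lower 4 and upper 4 livers. In Dnajb11 the margin was very narrow, 10.724 on control 1 and 10.7275 on control 4. The share of all genes with this split was not counted.

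Sel1l, the partner that holds HRD1 in its complex, read 11.77, 12.23, 12.49 and 12.19 in controls and 12.34, 11.82, 12.03 and 12.14 in the other group, a difference of -0.09 (SE 0.14) that became -0.31 (SE 0.10; limma adjusted p = 0.0904) in the 6 livers not numbered 1. Herpud1, a membrane protein that assembles the HRD1 complex, read 13.00, 13.26, 13.46 and 13.03 against 13.38, 12.86, 12.89 and 13.12. Its difference was -0.12 (SE 0.13). It was -0.29 (SE 0.10; 95% interval -0.51 to -0.07; limma adjusted p = 0.106) in the 6 livers not numbered 1, -0.23 when knockout-labelled array 1 was dropped and -0.03 when control 3 was dropped. The groups of both genes overlapped.

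The derlins, membrane proteins of the ERAD channel, had differences of both signs, none past the threshold. Derl1 differed by -0.0024 (SE 0.09) and Derl2 by 0.21 (SE 0.10; limma adjusted p = 0.472), the only ERAD gene with a higher mean, with values of 10.54, 10.66, 10.67 and 10.44 in controls and 10.82, 10.56, 10.94 and 10.83 in the other group. Derl3, the stress-inducible derlin, read 10.32, 11.39, 11.55 and 9.82 in controls and 11.49, 9.82, 11.31 and 9.86 on the knockout-labelled arrays. The livers lay at 2 levels, from 9.82 to 10.32 and from 11.31 to 11.55, with 2 livers of each group at each level. The difference between groups was -0.15 (SE 0.44; 95% interval -1.11 to 0.82), and -0.59 (SE 0.43) without both arrays numbered 1. The pancreatic markers, from an organ with a large ER, averaged 6.41 to 6.58 on controls 2 and 3 and 6.33 to 6.43 on knockout-labelled arrays 1 and 3, where Derl3 was high, and 6.46 to 6.56 on the 4 low arrays.

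Among the 5 sensors and factors 3 had a lower mean, with a median of -0.13. Xbp1 read 13.28, 13.29, 13.27 and 13.15 in controls and 13.31, 12.89, 12.86 and 12.96 on the knockout-labelled arrays. Control 1 lay with the other controls in this gene, unlike in Syvn1 and Edem1, and knockout-labelled array 1 was the highest of the 8. The difference was -0.24 (SE 0.09; 95% interval -0.44 to -0.04; limma adjusted p = 0.363), the smallest p of any member. Array weights gave -0.30 (limma adjusted p = 0.0417). Dropping knockout-labelled array 1 gave -0.34 (limma adjusted p = 0.0126), and dropping control 1 as well gave -0.33 (limma adjusted p = 0.00793). A whole-gene value does not separate spliced from unspliced Xbp1 mRNA. Atf6 differed by -0.15 (SE 0.10) and Eif2ak3 by -0.13 (SE 0.11), and without both arrays numbered 1 by -0.26 and -0.25 (limma adjusted p of 0.0860 and 0.222). Ern1, the kinase and RNase that splices Xbp1, differed by 0.03 (SE 0.11). Atf4, which is controlled mainly by translation, read 8.68, 8.71, 8.78 and 8.77 in controls and 8.72, 8.73, 8.84 and 8.88 in the other group, a difference of 0.06 (SE 0.09; 95% interval -0.13 to 0.24).

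The 6 ATF4 targets were divided, 3 with a higher and 3 with a lower mean, with a median of -0.06. Trib3 encodes a pseudokinase that binds Akt and is induced by ATF4 and CHOP. It read 8.01, 7.37, 7.42 and 7.15 in controls and 7.30, 7.998, 7.95 and 7.66 on the knockout-labelled arrays. Control 1 and knockout-labelled arrays 2 to 4 were the upper 4 livers, as for Igfbp1 and opposite to Syvn1 and Edem1. The difference was 0.24 (SE 0.19; limma adjusted p = 0.688). In the 6 livers not numbered 1 it was 0.55 (SE 0.12; limma adjusted p = 0.0124). Asns, asparagine synthetase, read 10.67, 9.88, 10.88 and 10.83 in controls and 9.39, 11.38, 10.36 and 9.66 on the knockout-labelled arrays. Both extremes were knockout-labelled, and the SD was 0.46 in controls and 0.89 in the other group. The difference of -0.37 (SE 0.36; 95% interval -1.16 to 0.42; limma adjusted p = 0.767) moved to -0.77 without knockout-labelled array 2, to -0.10 without array 1 and to -0.07 without both arrays numbered 1. The order of the knockout-labelled livers in Asns, lowest on array 1 and highest on array 2, was the reverse of that in Creld2 and Sdf2l1.

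Ddit3, which encodes the transcription factor CHOP, read 8.38, 8.77, 8.70 and 8.43 in controls and 8.35, 8.22, 8.39 and 8.44 in the other group, a difference of -0.22 (SE 0.11; limma adjusted p = 0.476). Controls 2 and 3 stood above all other livers. Chac1, a glutathione-degrading enzyme, differed by -0.12 (SE 0.09). Its 4 controls lay within 7.67 and 7.76, and the knockout-labelled arrays ran from 7.45 to 7.78. Atf3, a stress-induced factor, ran from 7.39 to 8.24, both ends being controls, and differed by 0.02 (SE 0.17). Ppp1r15a encodes GADD34, the phosphatase subunit that reverses eIF2alpha phosphorylation, and differed by 0.01 (SE 0.09; 95% interval -0.18 to 0.20).

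**Figure D4:**
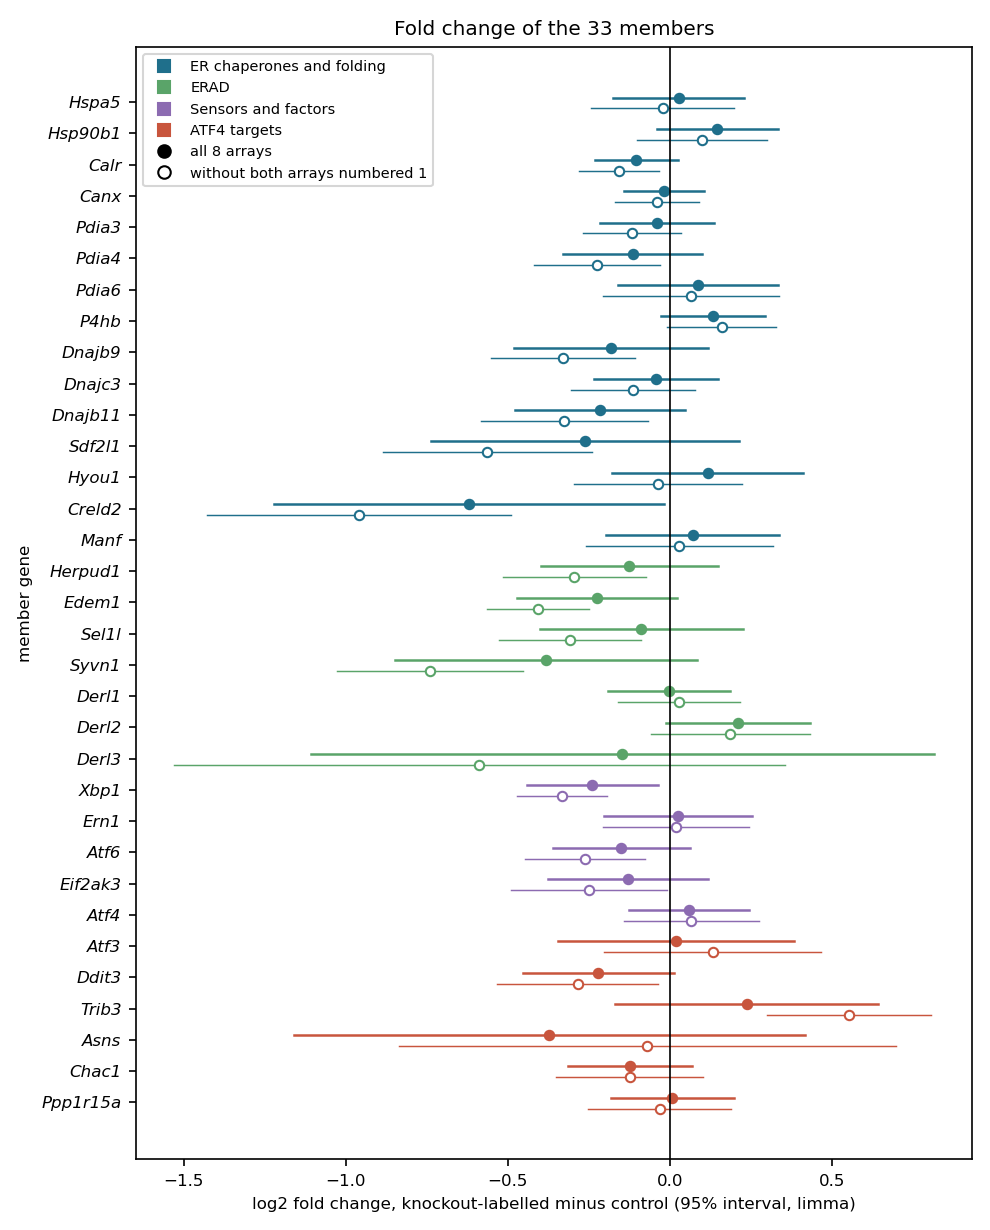
Log2 fold change (knockout-labelled minus control, horizontal axis) of the 33 members with limma 95% intervals; filled circles use all 8 arrays and open circles leave out both arrays numbered 1, coloured by role. With all arrays only the intervals of Creld2 and Xbp1 leave out 0, and no member passed the adjusted threshold.

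Set side by side, the 22 chaperone, folding and ERAD genes and the 6 ATF4 targets had nearly the same median, -0.07 and -0.06, a difference of -0.0080. In the first group 15 genes were lower and 7 higher in mean. The difference between the medians is smaller than its spread between livers (SD 0.19). The 2 groups were read at different signal levels. Control means ran from 10.58 (Derl2) to 13.59 (Hspa5) in the 22 genes. In the ATF4 targets other than Asns (10.57) they ran from 7.49 (Trib3) to 8.57 (Ddit3). The part of signal level in the size of the differences, and so in the near-equal medians, was not tested. Without both arrays numbered 1 the medians were -0.14 and -0.05, with 16 of 22 and 4 of 6 genes lower, and 4 of the 22 called lower while 1 of the 6 was called higher. In that setting 54.9% of all genes were lower in mean, 4.86% were called lower and 2.39% higher. The mean deviation of the 22 genes from their own 8-array means was -0.10, 0.16, 0.22 and -0.11 in controls and 0.21, -0.32, -0.02 and -0.04 on the knockout-labelled arrays. For the ATF4 targets it was 0.17, -0.07, 0.13 and -0.08, and -0.22, 0.15, 0.04 and -0.12. The signs were opposite on 5 of the 8 arrays, a count that depended on single genes. Without Asns the mean of the other 5 targets was 0.15, 0.013, 0.06 and -0.18 in controls and -0.06, -0.018, 0.05 and -0.0029 on the knockout-labelled arrays. The signs were then opposite on 3 of the 8 arrays, several of these means being very small. With Asns kept and Derl3 left out of the 22 genes, they were opposite on 6 of the 8 arrays. The 11 chaperone and ERAD genes with an ERSE or ERSE-II had a median of -0.10, and the 8 with a window and neither element also had -0.10; without both arrays numbered 1 the medians were -0.16 and -0.27.

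**Figure D5:**
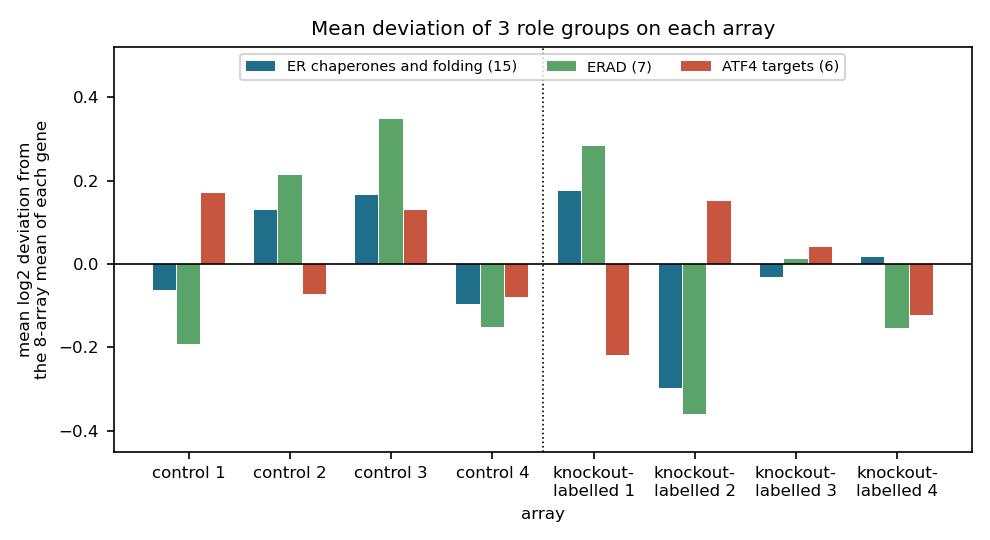
Mean log2 deviation of 15 ER chaperone and folding genes, 7 ERAD genes and 6 ATF4 targets from each gene's own mean over the 8 arrays, for each array. Both ER groups are lowest on knockout-labelled array 2, at -0.30 and -0.36; the ATF4 target bars of -0.22 and 0.15 on knockout-labelled arrays 1 and 2 are -0.06 and -0.018 without Asns.

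Further genes of the same pathways were read from 2 wider lists. Of 43 other ER folding and ERAD genes 42 were measured, 20 higher and 22 lower in mean (median -0.06), and 0 passed. At an unadjusted p under 0.05, 6 were higher and 7 lower (background 3.94% and 6.47%). The groups did not overlap in 5, 3 higher (Fkbp2, Ube2g2 and Creb3) and 2 lower (Fkbp14 and Dnajc1), against 1.87% and 2.58% of all genes. Fkbp2, an ER prolyl isomerase, read 9.87, 9.93, 9.98 and 9.67 in controls and 10.09, 10.48, 10.59 and 10.44 in the other group, so that the groups did not overlap (0.53, SE 0.12; limma adjusted p = 0.129). Ube2g2, a ubiquitin-conjugating enzyme of ERAD, differed by 0.38 (SE 0.11; limma adjusted p = 0.229), also without overlap. Wfs1, the ER membrane protein wolframin, read 9.66, 10.01, 10.11 and 9.71 in controls and 9.82, 9.14, 9.14 and 9.19 in the other group, a difference of -0.55 (SE 0.16; limma adjusted p = 0.236). Knockout-labelled arrays 2 to 4 again lay below every control and array 1 among them. Ppib, the ER isomerase cyclophilin B, differed by -0.39 (SE 0.11; limma adjusted p = 0.217). With array weights Fkbp2 and Ube2g2 passed as higher and Ppib, Wfs1 and the ERAD adaptor Nploc4 as lower. In the 6 livers not numbered 1, Fkbp2 was called higher and Txndc11, Ppib, Nploc4, Ube2j1 and Wfs1 lower, beside 2.39% and 4.86% of all genes.

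Of 44 other genes of the integrated stress response 41 were measured, 23 higher and 18 lower in mean (median 0.02), and 0 passed. At an unadjusted p under 0.05, 5 were higher and 1 lower, and 2 higher (Cebpb and Tars) and 1 lower (Sars) did not overlap. Over all genes these shares were 3.94% and 6.47%, and 1.87% and 2.58%. Tars, threonyl-tRNA synthetase, read 8.92, 9.15, 9.20 and 9.30 in controls and 9.55, 9.33, 9.56 and 9.55 in the other group (0.36, SE 0.11; limma adjusted p = 0.239), and the groups did not overlap. Cebpb, a transcription factor that pairs with ATF4 at composite elements, differed by 0.37 (SE 0.12; limma adjusted p = 0.279), without overlap, though control 1 (8.81) nearly met knockout-labelled array 1 (8.83). Sars and Nars encode synthetases whose means were lower. Sars, for serine, differed by -0.29 (SE 0.10; limma adjusted p = 0.301) with the lowest control and knockout-labelled array 1 both at 10.71, and Nars, for asparagine, by -0.15 (SE 0.09; limma adjusted p = 0.568). With array weights Tars and Cebpb passed as higher and Sars as lower. In the 6 livers not numbered 1 the genes called higher were Atf5, Sesn2, Cebpb and Eif4ebp1, and Sars was called lower, where 2.39% of all genes were called higher and 4.86% lower.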

How the data were processed

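Liver RNA of 8 mice was measured on Affymetrix arrays, 100 ng of total RNA per sample per the labels' protocols. The table deposited by the authors holds log2 values of 35556 probe sets on each array. RMA, Partek and Affymetrix Expression Console are listed, per the submitters' processing notes, without versions, roles or order. The log base was read from the value range and the use of RMA. RMA brings arrays to a common scale, which would hide a shift common to most genes; array medians were 6.90 to 7.03. No genome build is named in the labels or the file.

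Probe sets were named by GEO's platform annotation: 21789 with 1 symbol, 1621 with several and 12146 with none. The 23410 with a symbol were fitted with limma 3.58.1 in R 4.3.3 (lmFit, eBayes with trend, two-sided, equal weights), and p-values were adjusted by Benjamini-Hochberg over all of them, with 0.05 as threshold. Counts over genes use the brightest probe set of each of 20738 annotations. The number of arrays limits the precision. The fit was tested on simulated data with independent noise for each gene and no outlying or exchanged array. That test therefore does not cover the arrays numbered 1 here.

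Members, gene lists, the rule for named genes and the alternatives were chosen with earlier results of these data known. All 33 members are named; from each wider list the pair with the smallest p in each direction was named, and the other genes of these lists were named after their values were seen, because they passed under another setting or their groups did not overlap. Lists are described by counts and medians, without a test. Listed genes without a probe set here (6) were not analysed. Promoter motifs were searched with Python 3.11.15 in RefSeq windows. Alternatives were each array left out, both arrays numbered 1 left out, array weights, a replicate block, other scalings, other probe set choices and no variance trend. Array means without Asns or Derl3 were added after seeing the data.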

Additional observations from a re-analysis of the deposited data

Results flagged for a closer look

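In 3 of the 66 groups of 4 arrays examined, 1 array lay far from the other 3 by Dixon's criterion, the gap to the nearest array over the range of the group. Chance flags about 1 in 20 such groups, so this number is close to what chance gives. Hspa5 read 13.32 on knockout-labelled array 2 and 13.70 to 13.75 on the other knockout-labelled arrays (gap over range 0.882). Dnajc3, the BiP co-chaperone p58IPK, read 11.69 on the same array and 11.92 to 11.96 on the others of its group (0.844). Xbp1 read 13.15 on control 4 and 13.27 to 13.29 on the other controls (0.892).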

How the results depend on the processing

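A total of 18 alternatives was run. The direction held in all of them for 20 of the 33 members, 27 passed the threshold in none, and the 6 that passed in at least 1 were Creld2, Sdf2l1, Edem1, Syvn1, Xbp1 and Trib3. The count of probe sets past the threshold was 0 in the main setting, 0 to 1053 when single arrays were dropped (255 without control 1, 1053 without knockout-labelled array 1), 924 with array weights and 1838 without both arrays numbered 1. The count of members was 0, from 0 to 2, 1 and 6 in the same order. With the replicate number as a block 0 members and 0 probe sets passed. Same-numbered arrays deviated with correlations of 0.0036, -0.095, -0.063 and 0.21, so the numbers were not taken as pairs. The median of the chaperone and ERAD genes lay between -0.12 and 0.010 (the latter without knockout-labelled array 2) when single arrays were left out, the ATF4 target median from -0.11 to -0.041 and their difference from -0.061 to 0.091. Signs turned without both arrays numbered 1 in Hspa5 (-0.022), Hyou1 (-0.037), Derl1 (0.029) and Ppp1r15a (-0.031), with array weights in Ppp1r15a (-0.014), and with median-centred arrays in Derl1 (0.015). With single arrays left out, ranges that crossed 0 were -0.015 to 0.13 for Hspa5, -0.039 to 0.012 for Canx, -0.11 to 0.023 for Pdia3, -0.0017 to 0.15 for Pdia6, -0.089 to 0.023 for Dnajc3, -0.026 to 0.16 for Manf, -0.22 to 0.020 for Sel1l, -0.045 to 0.046 for Derl1, -0.46 to 0.12 for Derl3, -0.027 to 0.11 for Ern1, -0.12 to 0.16 for Atf3 and -0.028 to 0.050 for Ppp1r15a. Without Derl3, a choice made after seeing the data, the mean deviation of the remaining 21 chaperone and ERAD genes was -0.047 on knockout-labelled array 3 and 0.0013 on array 4. The cause of these changes was not tested.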
